A study of Mus musculus with 6 samples.

Results

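The transcription factors that set or end the B cell programme were followed in a mouse B cell line after siRNA against Spt6. They were taken by name, as the probes whose current or older symbol is Pax5, Ebf1, Ikzf1, Ikzf3, Spib, Bach2, Bcl6, Irf8, Irf4 or Prdm1, and all 10 of 10 were found among the 16390 named genes of the array. Ikzf1 and Ikzf3 stood there under the older symbols Zfpn1a1 and Zfpn1a3. Ebf1 had 2 probes and each of the other factors had 1, so 11 of the 23473 probes were involved, and the brighter probe stood for Ebf1. The cells were CH12F3-2A, a line derived from a B cell lymphoma that switches to IgA when stimulated with CD40L, IL4 and TGFb, a mixture called CIT. The groups were siSpt6 (3 samples, electroporated with siRNA against Spt6) and siControl (3 samples, electroporated with control siRNA). Every sample was cultured for 24 h after transfection, then given CIT and cultured for another 24 h, so the controls carry the stimulation too, and unstimulated cells were not analysed here. Spt6, encoded by Supt6, chaperones histones while RNA polymerase II transcribes, and the stated design was to profile mRNA while class switching was induced.

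B cell identity is kept by a small set of DNA-binding proteins. Ebf1 and Pax5 open and hold the B cell programme, the zinc finger proteins Ikaros (Ikzf1) and Aiolos (Ikzf3) and the ETS factor Spi-B work beside them, and Irf8 supports germinal centre B cells. Bach2 and Bcl6 hold activated B cells back from becoming plasma cells, largely by repressing Prdm1. Prdm1 encodes Blimp-1, which shuts down much of the B cell programme, and Irf4 supports class switching and, at high levels, the step to plasma cells.

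Bach2 and Bcl6 rose in siSpt6 cells and the other 8 factors did not pass the test. Their upstream sequences are shown here because they are the 2 factors that changed, and that of Irf8 because it carries the same short motif without a change of its transcript past the threshold. Each stretch is the 250 bases before a transcription start in RefSeq, build GRCm38.p6, written 5′ to 3′ on the gene's strand. Capitals mark TTCNNNGAA, the core to which STAT proteins bind, which reads the same on both strands. The Bach2 stretch lies at chr4:32417185-32417434 (plus strand), the upstream Bcl6 stretch at chr16:23988853-23989102 (minus strand), the downstream one at chr16:23981284-23981533 (minus strand), and the Irf8 stretch at chr8:120736108-120736357 (plus strand).
Bach2: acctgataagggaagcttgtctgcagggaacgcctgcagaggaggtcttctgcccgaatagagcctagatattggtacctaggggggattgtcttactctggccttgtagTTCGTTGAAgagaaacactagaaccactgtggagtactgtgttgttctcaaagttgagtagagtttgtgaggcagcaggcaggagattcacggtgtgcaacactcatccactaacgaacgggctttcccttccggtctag
Bcl6, upstream start: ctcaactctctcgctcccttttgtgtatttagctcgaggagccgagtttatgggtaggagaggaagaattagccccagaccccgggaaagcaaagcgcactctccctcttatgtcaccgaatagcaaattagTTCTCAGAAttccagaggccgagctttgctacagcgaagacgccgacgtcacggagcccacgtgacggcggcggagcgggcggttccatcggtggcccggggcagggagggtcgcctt
Bcl6, downstream start: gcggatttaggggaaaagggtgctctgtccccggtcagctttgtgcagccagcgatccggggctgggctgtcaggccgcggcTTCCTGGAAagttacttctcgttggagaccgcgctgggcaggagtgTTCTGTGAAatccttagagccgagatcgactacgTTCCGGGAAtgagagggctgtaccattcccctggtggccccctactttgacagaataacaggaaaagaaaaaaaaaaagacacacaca
Irf8: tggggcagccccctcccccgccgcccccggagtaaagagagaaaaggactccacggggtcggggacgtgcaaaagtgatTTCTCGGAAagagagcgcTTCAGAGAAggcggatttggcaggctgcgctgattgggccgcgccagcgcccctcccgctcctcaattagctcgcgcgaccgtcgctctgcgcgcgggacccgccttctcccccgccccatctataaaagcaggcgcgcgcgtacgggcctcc
The Bach2 stretch held 1 such motif, TTCGTTGAA, beginning 140 bases before the start. At Bcl6 the upstream start had TTCTCAGAA at 118 bases and the downstream start had TTCCTGGAA, TTCTGTGAA and TTCCGGGAA at 168, 122 and 88 bases. The Irf8 stretch had TTCTCGGAA and TTCAGAGAA at 171 and 153 bases. Of the 9 factors with a promoter entry, these 3 genes held the motif. By start it stood at 4 of 13, against 7.02% of all 32851 promoters of the same length. The other Irf8 start, not shown, held 0 matches. Ikzf3 had no entry. A match of letters is a description and was not tested as a binding site.
The search covered 7 motifs on both strands. The TATA box, written TATAAA and present in 12.4% of all promoters, stood before Irf8 and Irf4. The CCAAT box, spelled as in its name and present in 33.8%, stood before Spib, Bach2, Irf8 and Prdm1. A GC box, written GGGCGG and present in 32.7%, stood before Pax5, Ikzf1, Spib, Bcl6, Irf8 and Irf4. A FOXO-type motif, written GTAAACA and present in 3.17%, stood before Prdm1. The AP-1 type motif, written TGAGTCA and present in 4.46%, and a STAT6-type motif with a longer spacer, present in 5.85%, were found before none of the 9 factors.

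Each RNA was read in Cy5 on its own 1-colour array, and values are intensities in arbitrary units that the authors deposited. The array medians lay close to 30, while the mean intensity was between 329 and 339 on siSpt6 arrays and between 397 and 408 on siControl arrays. Log2 intensities correlated at 0.987 to 0.991 between arrays of the same group and at 0.976 to 0.981 between groups, across probes, which are not independent replicates. Whether the 3 samples of a group were grown apart is left unsaid by the labels. The p-values therefore speak only for the spread among the arrays at hand, part of which may be technical. Neither do they name an array batch, so a batch shared by a whole group and the siRNA cannot be told apart. Supt6, the siRNA's target, read 25.1, 21.8 and 28.1 in siSpt6, against 33.1, 32.1 and 32.1 in siControl, without passing the test (log2 difference -0.38, SE 0.13, limma adjusted p = 0.0973).

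The labelled cell type was checked against markers. The summed intensity of the 9 B cell markers measured was 15158 to 16924 in siSpt6 and 11179.8 to 13308 in siControl. Among them Cd79b and Ms4a1 were bright, at 8455 ± 698 and 4331 ± 639 in siSpt6 against 5787 ± 707 and 4087 ± 839 in siControl (intensity ± SD, n = 3 each), while the Ighm probe read only 43.7 ± 0.801 against 32.6 ± 2.75. Cd79b and Blk rose and Cd22 fell. Of 10 myeloid markers 8 were measured, with a summed intensity of 119 to 135 in siSpt6 and 107 to 131 in siControl. Most of that sum came from Csf1r, at 65.3 ± 3.78 in siSpt6 and 60.5 ± 9.0 in siControl, and S100a8, at 35.8 ± 3.14 and 36.4 ± 4.58 (SD, n = 3 each). The other 6 averaged at most 11.8 in siSpt6 and 9.03 in siControl, and of them Csf3r rose narrowly. The T cell markers Cd3e and Cd3g averaged 2.75 and 1.82 in siSpt6, with Cd3e blank on 1 array, and 2.24 and 2.03 in siControl. Higher values came from Cd3d (20.7 in siSpt6 and 20.8 in siControl), Cd4 (14.3 and 15.3), Lat (12.3 and 15.6) and Cd8a (8.97 and 9.88), none of them past the threshold. The summed T cell markers (8 of 10 measured) reached 627 to 742 in siSpt6 and 437 to 527 in siControl, mostly through Cd5, a gene also active in a subset of B cells, which rose, and Tcf7 fell. Markers of pro-B cells (6 of 7 measured) were near the dim end. The 5 of them with enough values to be tested had a summed intensity of 20.3 to 27.0 in siSpt6 and 12.8 to 16.0 in siControl. Among them were Rag1 at 2.74 ± 1.40 against 3.52 ± 0.315 and Vpreb1, which rose, at 9.55 ± 3.30 against 4.33 ± 1.03 (SD, n = 3 each). Rag2 averaged 2.90 against 3.16, Kit 4.52 against 1.83 and Il7r, blank on 1 siControl array, 3.50 against 1.74, none past the threshold. The median log2 difference of the 5 was 1.01. The part of these marker shifts in the results on the factors was not tested. Since these are bulk samples, fewer cells with a transcript and less of it per cell cannot be told apart.

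In all, 2 of the 10 factors passed the threshold (limma, Benjamini-Hochberg adjusted p under 0.05 over all probes), both higher in siSpt6, and 0 were lower, also at an unadjusted p under 0.05. Over the 21584 probes tested, 16.3% passed, 7.43% higher and 8.90% lower. With 10 genes, 2 calls is close to what that share gives, so the count is not a result about the factors as a set. In a separate fit of bright probes alone, adjusted among themselves, 1 of 8 factors passed (12.5%), against 36.8% of the probes. In the fit of all probes, the log2 differences were above 0 for 6 factors and below 0 for 4. Their median was 0.07, beside 0.01 for all probes. After quantile normalization it was 0.21, beside 0.04, and after cyclic loess normalization 0.18, beside 0.01. For 3 factors all siSpt6 values lay above all siControl values and for 1 all lay below, 4 of 10 in all, where 37.3% of the 20336 fully measured probes had no overlap between groups (16.9% higher and 20.4% lower). The call of Bcl6 was lost when siSpt6 replicate 1, siSpt6 replicate 3 or siControl replicate 3 was left out, which leaves Bach2 as the 1 factor called.

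**Figure D1:**
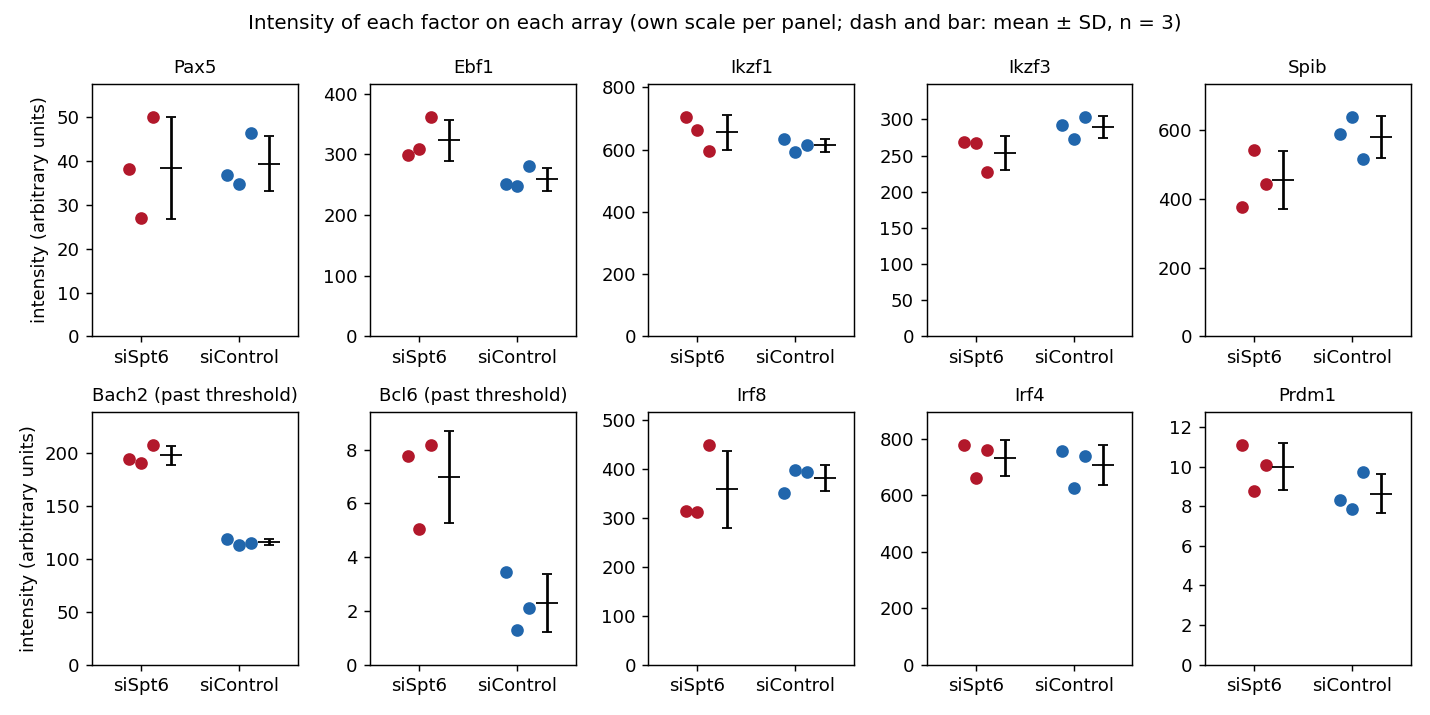
Intensity in arbitrary units of the brightest probe of each factor on each array, with siSpt6 (red) left of siControl (blue), a point per array and the mean ± SD (n = 3) beside the points. Each panel has its own linear scale from 0. The siSpt6 points of Bach2 (191 to 208) and Bcl6 (5.03 to 8.18) lie above all siControl points (113 to 119 and 1.28 to 3.43), and those of Pax5, Irf8 and Irf4 intermix with the control points.

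Among the factors that hold back plasma cell differentiation, Bach2 read 195, 191 and 208 in siSpt6, against 119, 113 and 115 in siControl. The groups lie far apart compared with the spread inside them. The means were 198 ± 8.90 in siSpt6 and 116 ± 2.97 in siControl (intensity ± SD, n = 3 each), a 1.71-fold rise (log2 difference 0.77, SE 0.11, limma adjusted p = 0.00533). Leaving out any 1 array gave log2 differences of 0.74 to 0.80 and limma adjusted p of 0.0207 to 0.0267.

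Bcl6, the repressor that germinal centre B cells depend on, read 7.78, 5.03 and 8.18 in siSpt6, against 3.43, 1.28 and 2.12 in siControl. All 3 siSpt6 arrays were higher, but the probe was dim, since the 10th percentile of all values on the arrays was 2.66 and 2 of the 3 control values lay below it. The means were 7.0 ± 1.71 in siSpt6 and 2.28 ± 1.08 in siControl (intensity ± SD, n = 3 each). The log2 difference of 1.70 (SE 0.37, 95% interval 0.82 to 2.58, limma adjusted p = 0.0241) corresponds to a 3.26-fold rise whose size depends on how background was treated, which the sources used here do not give. With a pseudocount of 2.66 added to every value, the log2(value + pseudocount) difference was 0.98 (limma adjusted p = 0.00807). Without siSpt6 replicate 1, siSpt6 replicate 3 and siControl replicate 3 in turn, the limma adjusted p was 0.0759, 0.0771 and 0.0600, and over all alternatives it ran from 0.00724 to 0.0771.

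Irf8, the interferon regulatory factor of germinal centre B cells, read 314, 311 and 449 in siSpt6 and 349.8, 398 and 393 in siControl. The highest and the lowest of the 6 values both came from siSpt6 arrays. The means of 358 ± 78.6 in siSpt6 and 380.4 ± 26.6 in siControl (intensity ± SD, n = 3 each) differed by less than the siSpt6 spread (log2 difference -0.11, 95% interval -0.52 to 0.31, limma adjusted p = 0.736). The sign turned to 0.03 after quantile and 0.02 after cyclic loess normalization.

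Among the factors of B cell identity, Pax5 read 38.2, 27.0 and 50.2 in siSpt6 and 36.9, 34.8 and 46.5 in siControl. The siSpt6 values span the whole control range, and this was the factor with the widest interval among those not called (log2 difference -0.07, 95% interval -0.64 to 0.51, limma adjusted p = 0.887). Ebf1, the factor that opens the B cell programme, read 299, 308 and 362 in siSpt6, against 250.5, 247 and 281 in siControl. Its groups did not overlap, yet the difference missed the threshold across all probes (log2 difference 0.31, SE 0.13, limma adjusted p = 0.157). The other Ebf1 probe read 252, 235 and 222 in siSpt6 and 216, 192 and 148 in siControl, also with no overlap and also short of the threshold (log2 difference 0.37, limma adjusted p = 0.189). The 2 probes share the same 6 RNAs and are no replicates of each other. After quantile and cyclic loess normalization the brighter probe gave 0.42 (limma adjusted p = 0.0559 and 0.0564), within a range of 0.0559 to 0.325 over all alternatives.

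Neither of the Ikaros family members passed the test. Ikzf1 read 706, 664 and 595 in siSpt6 and 635, 593 and 614 in siControl, with the lowest siSpt6 value inside the control range (log2 difference 0.09, 95% interval -0.19 to 0.37, limma adjusted p = 0.668). Ikzf3, its relative Aiolos, read 269, 267 and 227 in siSpt6, against 292, 273 and 304 in siControl. All siSpt6 values of Ikzf3 were below all control values, by a gap smaller than the spread inside either group (log2 difference -0.19, 95% interval -0.49 to 0.10, limma adjusted p = 0.357). Spib, an ETS factor of mature B cells, read 377, 543 and 442 in siSpt6 and 587, 639 and 517 in siControl, so that the highest siSpt6 value passed the lowest control value. The means were 454 ± 83.6 in siSpt6 and 581 ± 61.2 in siControl (intensity ± SD, n = 3 each), the furthest below 0 of the 10 factors and short of the threshold (log2 difference -0.37, SE 0.17, limma adjusted p = 0.198). After quantile and cyclic loess normalization the Spib difference was -0.19 and -0.21.

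The factors of the plasma cell step did not pass the test. Irf4 read 778, 660.4 and 761 in siSpt6 and 758, 625 and 739 in siControl, and the ranges of the groups almost coincide (log2 difference 0.05, 95% interval -0.27 to 0.37, limma adjusted p = 0.838). Prdm1 read 11.1, 8.78 and 10.1 in siSpt6 and 8.34, 7.85 and 9.72 in siControl, on a dim probe (log2 difference 0.21, 95% interval -0.14 to 0.55, limma adjusted p = 0.394). Beside the rises of Bach2 and Bcl6, the repressors that act on Prdm1, no fall of Prdm1 past the threshold was seen. The probes of Bcl6 and Prdm1 were both dim, and a relation between these transcripts was not tested. For all 8 factors not called, the 95% interval stayed inside a change of 2-fold in either direction, from -0.77 (Spib) to 0.62 (Ebf1) on the log2 scale. A p that misses the threshold does not show that these transcripts were equal.

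**Figure D2:**
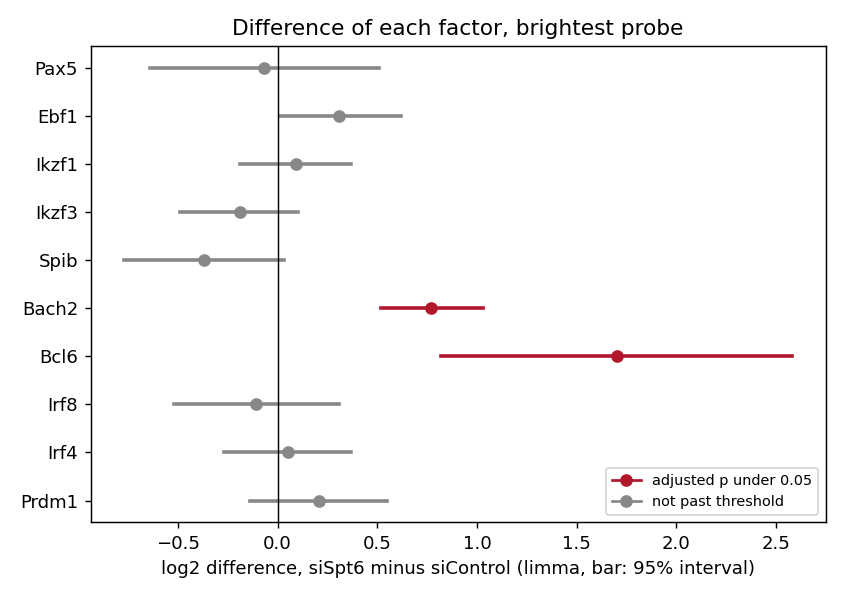
Log2 difference of each factor, siSpt6 minus siControl, with the 95% interval of the limma fit (3 arrays a group). Bach2 (0.77) and Bcl6 (1.70), in red, passed the adjusted threshold of 0.05, the interval of Ebf1 (0.01 to 0.62) starts just above 0, and the other 7 intervals include 0.

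**Figure D3:**
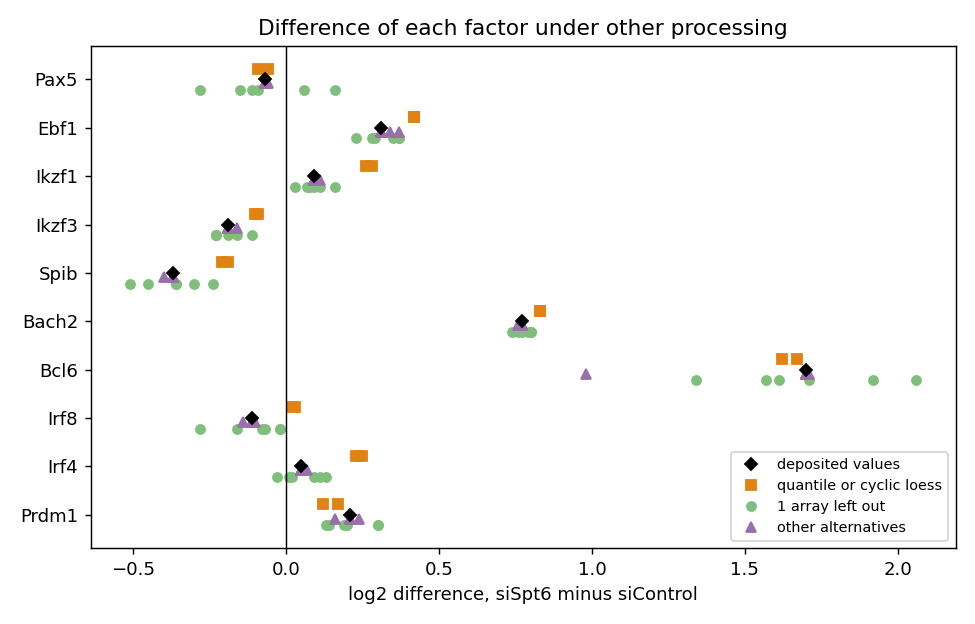
Log2 difference of each factor, siSpt6 minus siControl, in the deposited values (black diamonds), after quantile or cyclic loess normalization (orange squares), with 1 array left out (green points) and under the other alternatives (purple triangles). Bach2 stays between 0.74 and 0.83 and Bcl6 between 0.98 and 2.06, while Pax5, Irf8 and Irf4 cross 0.

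For each factor the named genes with the most similar pattern were found as those with the smallest root mean square difference of log2 values, each centred on its mean over the 6 arrays, among 14403 genes with a value on all 6. These include genes with provisional symbols (Gm, LOC, Rik and clone names), which were passed over when the nearest were taken. Nearest to Bach2 were Parp3 (0.0331) and C1qc (0.0407), and nearest to Bcl6 were Wdr66 (0.235) and Carf (0.270); all 4 also rose. For the other 8 factors the nearest genes were Cdh26 and Tnnt3 (Pax5), Proser2 and C1ql3 (Ebf1), Havcr2 and Mip (Ikzf1), Fblim1 and Acadsb (Ikzf3), Rcn2 and Mmadhc (Spib), Clstn3 and Fntb (Irf8), Slc9a8 and Cox6c (Irf4), and Jade3 and Zfp148 (Prdm1). None of these 16 passed the threshold. Genes picked for a like pattern over the same 6 arrays have a like group difference largely by construction. The 4 rises and the lack of calls among the 16 are therefore not separate results. Likeness over 6 arrays in 2 groups is a description only.

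Genes that the factors control or work with were read from 11 lists, counted without the 10 factors themselves. Of 116 genes tested, 35 passed the threshold (30.2%), 16 higher and 19 lower in siSpt6, where 17.0% of all genes taken by their brightest probe did (7.40% higher and 9.65% lower). Most listed genes had bright probes. The probes whose mean reached the median of 32.38 were also fitted apart and adjusted among themselves. In that fit 42 of 91 listed genes passed (46.2%), against 3970 of 10792 probes (36.8%). These shares are not parts of the calls above. Of the 116 genes, 35 passed after quantile normalization, 21 higher and 14 lower, and 38 after cyclic loess, 22 higher and 16 lower. The count was 23 without siControl replicate 1 and 22 without siSpt6 replicate 1. In these lists 11 genes stood more than once. The lists were drawn from general knowledge of the factors in several cell types, so a listed gene need not be under that factor in CH12F3-2A. They were also chosen with earlier results of these data known. Their share of calls beside that of all genes is therefore a description only.

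Of 26 other transcription factors of B cells, 3 rose and 3 fell, with a median log2 difference of 0.06. Gfi1, a zinc finger repressor, rose 3.76-fold to 78.5 ± 7.24 in siSpt6, against 20.8 ± 0.773 in siControl (intensity ± SD, n = 3 each; limma adjusted p = 0.000568). Foxo1, a forkhead factor of B cell development, rose 1.94-fold to 374 ± 45.6, against 192 ± 11.5 in siControl, and Zbtb20 rose 1.35-fold. Zbtb32, a zinc finger repressor of the same BTB class as Bcl6, fell 1.83-fold to 169 ± 19.6, against 309 ± 7.81 in siControl. Myb fell 1.65-fold, a call lost without siControl replicate 1 or 2 or siSpt6 replicate 1 or 2 (limma adjusted p up to 0.0674). Xbp1, the factor of the secretory programme of plasma cells, read 1131 ± 85.9 in siSpt6 and 1556 ± 121 in siControl, a fall past the threshold narrowly (limma adjusted p = 0.0481). Leaving out any 1 of the 6 arrays ended that call, as did quantile or cyclic loess normalization, with limma adjusted p reaching 0.357. E2A (Tcf3, listed as Tcfe2a), Pou2af1, Pou2f2 and Spi1, of the same list, gave log2 differences of -0.34, 0.04, -0.30 and 0.39, none past the threshold. A dimmer probe listed as Tcf3 did pass, 2.62-fold lower in siSpt6 (log2 difference -1.39, limma adjusted p = 0.00349), so the probes under that name disagree, and the symbol has also been used for another gene.

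Genes activated by Pax5 and Ebf1 went both ways: of 16 measured, 4 rose and 3 fell, with a median of 0.37. Fcrla, an intracellular Fc receptor-like protein, rose 2.60-fold to 442 ± 22.7 in siSpt6, against 170.2 ± 17.1 in siControl (intensity ± SD, n = 3 each; limma adjusted p = 0.00136). Cd79b, a signalling chain of the B cell receptor, rose 1.46-fold, a call that ended when any array but siControl replicate 2 was left out, with limma adjusted p reaching 0.113, and also with the replicate number as a block (limma adjusted p = 0.0769). Blk, a kinase of the same receptor, and Vpreb1, part of the surrogate light chain, also rose narrowly (log2 differences 0.72 and 1.11, limma adjusted p = 0.0393 and 0.0428). Fcer2a, the low-affinity IgE receptor CD23, fell 3.50-fold to 33.3 ± 6.82, against 115 ± 5.6 in siControl, and Lef1 fell 2.37-fold. Cd22, an inhibitory co-receptor, fell 1.54-fold a call that every omission of an array ended, with limma adjusted p reaching 0.0877.

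Of 10 genes that Pax5 represses, 3 rose and 2 fell (median 0.33). Flt3, a receptor of early progenitors, rose to 13.2 ± 3.88 in siSpt6, against 2.74 ± 0.567 in siControl (a dim probe). The chemokine gene Ccl3 rose 3.22-fold to 348 ± 9.40, against 108 ± 7.81 in siControl, and Ccr2 rose on a dim probe (log2 difference 1.08). Cd28 fell 1.57-fold and Xbp1 fell as given above. Quantile normalization took the limma adjusted p of Cd28 to 0.0675 and leaving out siControl replicate 2 took it to 0.0534, within a range of 0.00132 to 0.0675 over all alternatives.

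Genes that Blimp-1 represses, other than the factors themselves, gave 1 rise and 3 falls among 8 (median -0.22). S1pr1, a receptor for sphingosine phosphate, rose 4.51-fold to 274 ± 30.5 in siSpt6, against 61.6 ± 14.0 in siControl (intensity ± SD, n = 3 each). Myc fell 1.99-fold to 572 ± 132, against 1123 ± 172 in siControl, and lost its call without siControl replicate 1 or 2 (limma adjusted p = 0.0600 and 0.0729). Syk, a kinase of the B cell receptor, fell 1.46-fold, and Cd22 fell as above. Of 14 plasma cell genes 0 rose by limma, also at an unadjusted p under 0.05, and 3 fell (median -0.15). The largest of these falls was in Fkbp11, a protein folding enzyme of the endoplasmic reticulum, 2.21-fold to 77.2 ± 10.2, against 170.0 ± 12.1 in siControl, and the others were Cd28 and Xbp1. After quantile normalization the calls of Cd28 and Xbp1 were lost. The median of the plasma cell genes was then -0.03, and -0.05 after cyclic loess normalization. Sdc1, the plasma cell surface marker, was at the dim end, with means of 2.20 in siSpt6 and 1.72 in siControl over 2 measured arrays each.

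Genes that Bcl6 represses gave 5 falls and 1 rise among 11 measured (median -0.62). Cyclin D2 (Ccnd2) fell 3.08-fold to 85.8 ± 8.92 in siSpt6, against 263 ± 10.5 in siControl, and the activation marker Cd69 fell 1.94-fold to 543 ± 24.4, against 1053 ± 46.6 in siControl (intensity ± SD, n = 3 each). Chek1, a replication checkpoint kinase, Batf, a partner of Irf4, and Bcl2, a survival gene, also fell (log2 differences -1.33, -0.79 and -0.62). A second, dimmer Bcl2 probe rose (log2 difference 1.05, limma adjusted p = 0.00496), so the probes of that gene disagree. The 5 falls count the brighter Bcl2 probe, and the list median of -0.62 is the value of that probe. Ccl3, the member that rose, is given above. Of 8 genes for corepressors of Bcl6, 0 rose and 0 fell by limma, while 1 (Mta3, log2 difference 0.31) had an unadjusted p under 0.05, with log2 differences from -0.26 (Hdac3) to 0.32 (Bcor).

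Partners of Irf4 and Irf8 gave 2 rises and 2 falls among 9 (median 0.31). Batf3 fell 2.70-fold to 70.7 ± 3.27 in siSpt6, against 191 ± 5.14 in siControl, and Batf fell 1.73-fold to 417 ± 27.3, against 724 ± 73.2 in siControl (intensity ± SD, n = 3 each). Stat3 rose 1.82-fold and Fos rose 1.98-fold, and the Fos call was lost without siSpt6 replicate 1 (limma adjusted p = 0.0529). Of 6 other interferon regulatory factor genes 1 rose, Irf9, 1.76-fold to 146 ± 10.7, against 82.9 ± 9.25 in siControl. Among 10 partners and targets of Bach2, only its relative Bach1 passed (1 rise, 0 falls, median 0.01), at 46.7 ± 6.95 in siSpt6 against 29.9 ± 3.53 in siControl. Omitting any array but siSpt6 replicate 2 ended that call, with limma adjusted p reaching 0.116, as did the replicate number as a block (limma adjusted p = 0.0632). Of 10 subunits of NuRD, the chromatin complex that Ikaros joins, 1 rose and 3 fell: Chd3 rose 1.72-fold, while Rbbp7, Mta1 and Mbd3 fell (log2 differences -0.75, -0.66 and -0.50). Rbbp7 missed the threshold after quantile and cyclic loess normalization (limma adjusted p = 0.0680 and 0.0501).

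**Figure D4:**
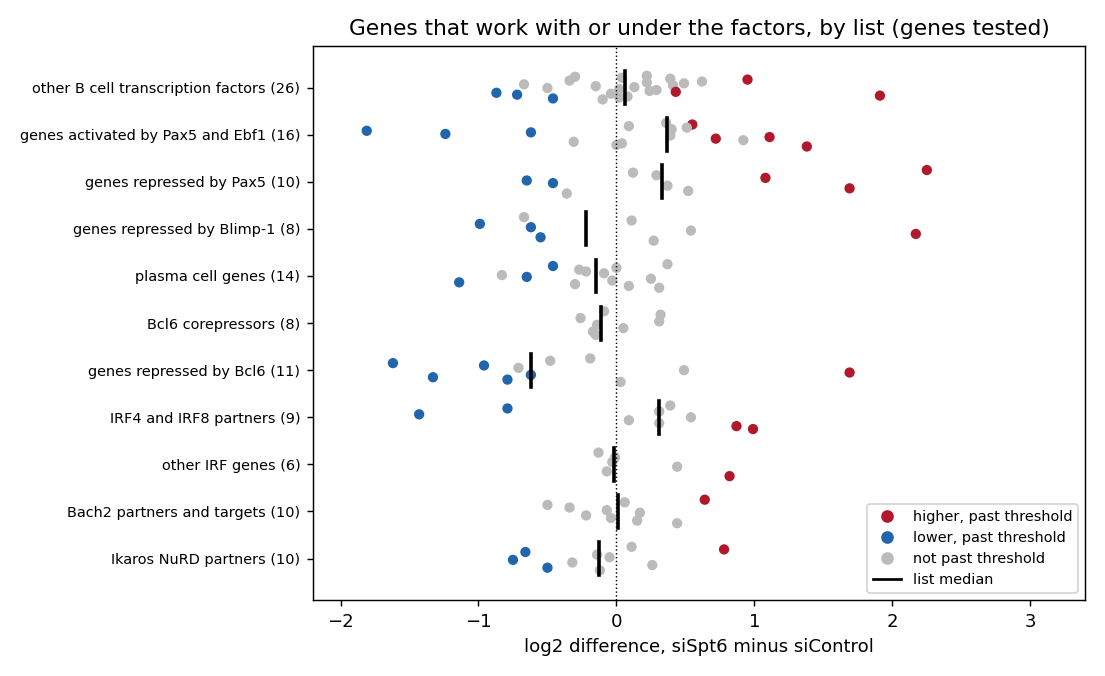
Log2 difference, siSpt6 minus siControl, of each tested gene of the 11 lists, with 1 row a list, the number of genes tested in brackets and the list median as a black bar. Red and blue points passed the threshold higher (16 genes) or lower (19 genes), with genes of several lists shown in each, and grey points did not.

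Medians of the lists moved with the scaling. The Bcl6 corepressor and NuRD medians were -0.11 and -0.13 in the deposited values but 0.06 and 0.06 after quantile normalization, and that of the other interferon regulatory factors, -0.02, was 0.01. The medians of the Bcl6-repressed genes stayed below 0 (-0.43 after quantile and -0.44 after cyclic loess normalization) and those of genes that Pax5 and Ebf1 activate stayed above it (0.42 and 0.39). Zbtb20, Blk, Vpreb1, Ccr2, Syk, Chek1, Bcl2, Mbd3, the markers Cd5, Tcf7, Csf3r, Csf1r, S100a8, Ms4a1, Ighm, Cd3e, Cd3g, Cd3d, Cd4, Lat, Cd8a, Rag1, Rag2, Kit and Il7r, and E2A, Pou2af1, Pou2f2, Spi1, Bcor, Hdac3, Mta3 and Sdc1 were named after their values were seen. Whether their calls hold under other scaling or with an array left out was not read gene by gene. Zbtb20 and Ccr2 passed narrowly (limma adjusted p = 0.0416 and 0.0451), and Syk and Mbd3 had limma adjusted p = 0.0318 and 0.0322.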

How the data were processed

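RNA of 6 CH12F3-2A samples was amplified, coupled to Cy5 and hybridised to 1-colour arrays, per the labels' protocols. The values are intensities on a linear scale, as deposited by the authors. The sources used here do not give how background was corrected or the arrays scaled. The array medians are nearly equal. All 6 columns were assigned by sample, and 0 other columns were present.

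Values were taken as log2 with no pseudocount. A probe was tested where each group had 2 or more measured arrays (21584 of 23473 probes), with limma 3.58.1 in R 4.3.3 (lmFit and eBayes, group only, two-sided, Benjamini-Hochberg adjusted p under 0.05 over all tested probes). Blank values were left out, not imputed. Of the probes, 16631 had 1 gene symbol and 6842 were unnamed here. The symbols came from the platform annotation and 3947 older ones were updated through RefSeq. The brightest probe stood for a gene. A 1-colour array gives no molecule count. The number of arrays, 3 a group, limits the precision.

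The factors and lists were chosen with earlier results of these data known. Named were all 10 factors, Supt6, up to 2 rises and 2 falls of each list by adjusted p, and the 2 genes nearest each factor in pattern. The limma fit was tested on simulated data. In them it recovered 7 of 67 probes changed 1.5-fold, 23 of 67 changed 2-fold and 55 of 66 changed 4-fold. Far fewer probes were changed there than passed in these data, so these shares need not hold here. Alternatives were quantile, cyclic loess and median scaling, a pseudocount, 2 filters, 2 variance options, the replicate number as a block, a stricter threshold, other probes and each array left out.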

Additional observations from a re-analysis of the deposited data

How the results depend on the processing

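Bach2 kept its direction and call under all alternatives run. Among the 10 factors, 2 passed except under 5 alternatives that left 1 (Bach2): bright probes only (8 factors tested), an adjusted p under 0.01, and without siControl replicate 3, siSpt6 replicate 1 or siSpt6 replicate 3, so that leaving out an array gave 1 to 2. The sign turned for Pax5 (0.06 without siControl replicate 3 and 0.16 without siSpt6 replicate 2, range -0.28 to 0.16 over the arrays left out), Irf8 (0.03 with quantile and 0.02 with cyclic loess normalization) and Irf4 (-0.03 without siControl replicate 2, range -0.03 to 0.13). Of all probes, 3525 passed, 1958 to 2407 with an array left out and 1354 at an adjusted p under 0.01. Of the other listed genes, 35 passed, and 22 to 28 with an array left out. Fewer samples or a stricter threshold make fewer calls by construction, and the cause of the other shifts was not tested. The share of calls that were higher was 45.5% over all probes, 57.3% after quantile and 53.6% after cyclic loess normalization, and 37.0% among bright probes. For the listed genes it was 45.7%, 60.0% and 57.9%. Supt6 passed after cyclic loess normalization (log2 difference -0.42, limma adjusted p = 0.0491).

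The replicate numbers were not taken as pairs, since the labels do not say whether they mark shared cultures or days. The deviations of same-numbered arrays correlated at 0.351, 0.076 and 0.262 over 20336 probes. Those of unlike-numbered arrays correlated at -0.292 to 0.016, so every array correlated best with its own number. With the replicate number as a block 3594 probes, 2 factors (Bach2 and Bcl6) and 33 listed genes passed. Among the listed genes named by rule, the block ended the calls of Cd79b and Bach1 (limma adjusted p = 0.0769 and 0.0632). Dim probes such as those of Bcl6 and Prdm1 limit what can be read from their fold changes.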
